A study of Mus musculus with 18 samples.

Results

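Liver RNA from mice on a plain high-fat diet was compared with liver RNA from mice on a low-fat diet under caloric restriction, the groups at the far ends of energy supply among 6 dietary groups. The comparison held 6 of the 18 libraries, chosen by their titles: 3 from high-fat mice (HF) and 3 from restricted low-fat mice (LF+CR). It covered 10356 of the 23532 genes in the deposited table, namely those with at least 1 RPKM (reads per kilobase of transcript scaled to the mapped reads of the library) in at least 3 of the 18 libraries. All mice were wild type C57BL/6J, a common inbred laboratory strain. The regimens began at 5 weeks of age and livers were taken at 62 weeks. The labels write LF, HF, CR and Ex, taken here to stand for a low-fat or high-fat diet, restriction of calories, and exercise. The remaining groups were LF, LF+Ex, HF+CR and HF+Ex, with 3 libraries each. Diet composition, the degree of restriction, the sex of the mice, the hours since the last meal and the number of animals behind a library were not given in the sources used here. The p-values therefore measure the spread between these libraries, which may be technical. Diet and restriction changed together between HF and LF+CR, so their shares of a difference cannot be told apart within this comparison. The LF and HF+CR groups, which change 1 of them at a time, are given beside it.

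A well-fed liver stores excess fatty acid as triglyceride in lipid droplets, and a liver short of energy burns fatty acid and turns amino acids into glucose. The SREBP transcription factors drive genes of fatty acid and cholesterol synthesis, PPAR alpha drives genes of fatty acid oxidation, and PPAR gamma, scarce in lean liver, drives droplet genes in steatosis. The mouse liver also expresses a set of genes at different levels in males and females, set by the rhythm of growth hormone secretion acting through STAT5b.

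The 6 libraries carried the hepatocyte markers at a summed 55620.4 to 89688 RPKM, and the highest sum, in HF 1, included albumin (Alb), which the table lists at 0 in the other 5 libraries. Every hepatocyte makes albumin, so an exact 0 in this table can be a failed estimate, and genes at 0 are described only as listed at 0. Of the 12 hepatocyte markers, 4 were lower in HF and none higher in the test given below, with a median difference of -0.22. On leaving out any 1 of the 6 libraries, 2 to 5 were lower. Over all genes tested, 8.73% were lower. Exocrine pancreas markers summed to 2656 RPKM in LF+CR 1 and to between 5.04 and 12.7 RPKM in the other 5 libraries. The read number behind a library was not given in the sources used here. A rough estimate from the spacing of low RPKM values gave 22.1 to 28.7 × 10⁶ reads for HF and 30.6 to 41.5 × 10⁶ for LF+CR, so the LF+CR libraries were estimated to be deeper, and the part of this in any result was not tested. Log2 values correlated across genes at 0.976 to 0.989 between libraries of the same group and at 0.934 to 0.963 between HF and LF+CR libraries. Genes are not independent replicates in such a correlation. In bulk tissue, fewer cells of a type and less RNA per cell cannot be told apart.

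Of the 10356 genes, 1889 differed between HF and LF+CR at an adjusted p under 0.05 (limma on log2(RPKM + 1) over all 18 libraries, 2-sided, Benjamini-Hochberg adjustment). That was 18.2% of the genes tested. The HF level was the higher for 985 genes (9.51%) and the lower for 904 (8.73%), and these shares are the background for every list below. The lists were chosen with earlier results of these data known, so a share above this background can follow from that choice. Some genes belong to more than 1 list. The values of HF and LF+CR did not overlap for 4212 genes (40.7%), with HF above for 2015 (19.5%) and below for 2197 (21.2%). Large differences leaned toward HF: 278 called genes were higher and 145 lower by at least 1 log2 unit, and 24 were higher and 6 lower by at least 3. The median difference over all genes tested was -0.02. Each omission of 1 of the 6 libraries left its group fewer libraries, and the count fell each time, to 1612 at the highest (without LF+CR 3). It was 963 without LF+CR 1, 1087 without LF+CR 2 and 1168 without HF 2, and 762 when LF+CR 1 was left out together with HF+CR 1 and LF+Ex 1, the next highest in pancreas markers at 452 and 49.4 RPKM (HF+CR 2, at 38.6 RPKM, stayed in). The balance of calls depended on the setting, with 482 higher and 686 lower without HF 2, 795 and 817 without LF+CR 3, and 1071 and 1219 after quantile normalization. Of 176 called genes named by the rule given in the processing notes, 95 kept the call in all 30 alternative settings, and those lead the accounts that follow. A log2 difference on the RPKM + 1 scale understates the change of genes below a few RPKM.

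**Figure D1:**
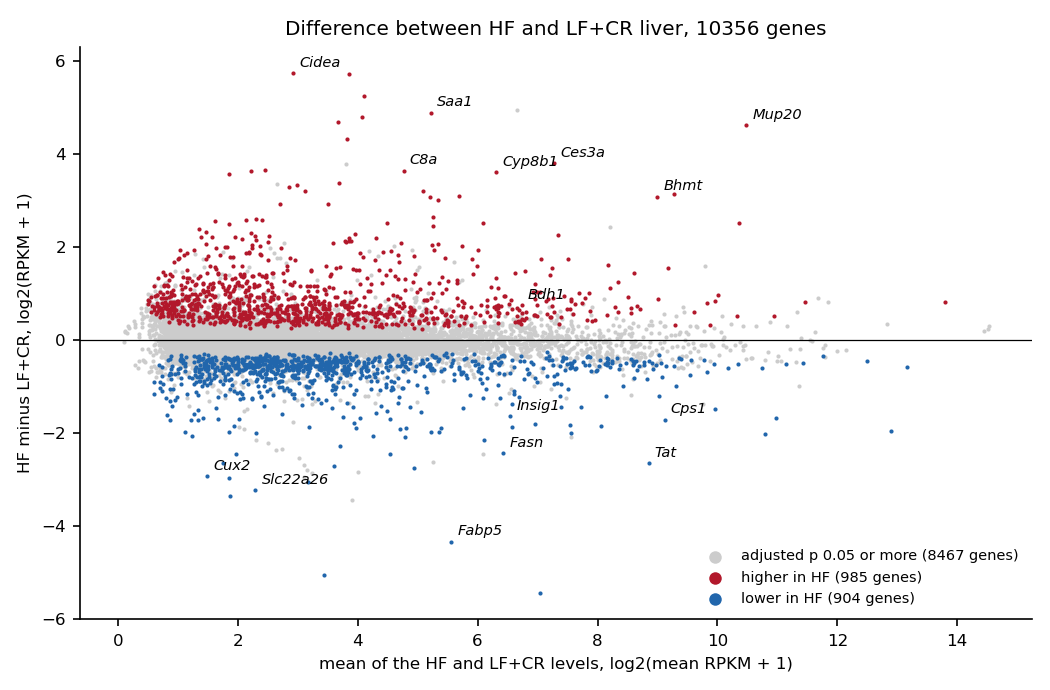
Each point is 1 of 10356 genes, with its mean level in HF and LF+CR on the x axis, as log2(RPKM + 1), and the difference HF minus LF+CR on the y axis. The 985 genes called higher in HF are red and the 904 called lower are blue; Cidea stands at the top at 5.75 and Fabp5 near the bottom at -4.34.

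The largest difference among named genes was in a lipid droplet gene. Cidea, whose protein joins lipid droplets into larger ones, stood at 44.9, 72.2 and 48.0 RPKM in HF and was listed at 0, 0 and 0.0560 RPKM in LF+CR. All 3 HF libraries were far above all 3 LF+CR libraries, and whether the 2 zeros are failed estimates was not tested. The difference was 5.75 log2 units (SE 1.0, adjusted p = 0.00175). Cidea lies at chr18:67343564-67367794 in the RefSeq annotation of GRCm38.p6. Cidec, a relative that also fuses droplets, was at 56.4, 84.4 and 53.1 RPKM in HF against 1.62, 1.39 and 1.47 RPKM in LF+CR, a difference of 4.69 (SE 0.82, adjusted p = 0.00185). The LF libraries held Cidea at 26.5, 0.509 and 5.40 RPKM, so LF spanned most of the range, while HF+CR stayed at or below 0.443 RPKM in all 3 libraries.

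Of 26 lipid droplet genes tested, 10 were higher in HF and 2 lower, and the median difference was 0.33 against -0.02 over all genes. Plin4, a droplet coat protein, stood at 27.3, 37.6 and 26.0 RPKM in HF and 2.54, 2.53 and 4.24 RPKM in LF+CR (difference 2.94, SE 0.51, adjusted p = 0.00171). Fitm1, a membrane protein that promotes droplet formation, was at 112, 115 and 110.4 RPKM in HF and 9.52, 13.9 and 16.6 RPKM in LF+CR (3.02, SE 0.44, adjusted p = 6.06e-04). Mogat1, which makes diacylglycerol from monoacylglycerol, rose by 2.56 (SE 0.44, adjusted p = 0.00171). The groups did not overlap for these 3 genes. Lpin1, a phosphatidate phosphatase that also acts as a nuclear coregulator in fasting, went the other way, at 3.19, 12.9 and 19.2 RPKM in HF and 48.3, 74.9 and 93.4 RPKM in LF+CR (-2.74, SE 0.79, adjusted p = 0.0264). The Lpin1 call was lost on leaving out any of LF+CR 1, 2 or 3, HF 1 or HF 2, with adjusted p between 0.0509 and 0.113. Without the 3 libraries with pancreas transcripts its adjusted p was 0.0632.

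Among 21 genes of PPAR gamma and fatty acid uptake, 5 were higher in HF and 3 lower, and 3 and 2 without the 3 libraries with pancreas transcripts. Fabp5, an intracellular fatty acid carrier, had the largest fall of the list: 8.18, 13.2 and 6.34 RPKM in HF against 222, 111 and 318 RPKM in LF+CR (-4.34, SE 0.52, adjusted p = 2.12e-04). Fabp2, the carrier best known from intestine, was higher in HF by 1.48 (SE 0.20, adjusted p = 3.93e-04), at 163, 214 and 169.9 RPKM against 50.7, 79.0 and 66.0 RPKM. So members of the same carrier family changed in opposite directions. The transport proteins Slc27a1 (1.01, SE 0.18, adjusted p = 0.00215) and Slc27a2 (0.88, SE 0.11, adjusted p = 3.05e-04) were higher in HF. Cd36, a fatty acid receptor, stood at 24.5, 50.2 and 40.8 RPKM in HF and 24.3, 25.7 and 20.2 RPKM in LF+CR and did not pass the test (0.64, SE 0.50, adjusted p = 0.394).

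The table holds 2 RefSeq transcripts of Pparg, the gene of PPAR gamma, and they differed in opposite directions. Transcript NM_011146 was at 8.53, 9.17 and 9.14 RPKM in HF and at 0.540, 0 and 0.628 RPKM in LF+CR. Transcript NM_001127330 was at 3.64, 4.39 and 1.501 RPKM in HF and at 7.32, 8.60 and 7.18 RPKM in LF+CR. The groups did not overlap for either transcript. The fit used the transcript with the highest mean over all libraries, NM_001127330, for which the difference of -1.13 (SE 0.43) did not pass the test (adjusted p = 0.0787). It was called lower with the HF and LF+CR libraries fitted alone (adjusted p = 0.0252), without LF 2 (0.0479), without LF 3 (0.0454) and without LF 2 and HF+CR 3 (0.0340). With the transcripts summed the sign turned, to 0.53 (adjusted p = 0.249). How Cufflinks shared reads between these overlapping transcripts was not given in the sources used here.

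Genes of fatty acid synthesis were lower in HF than in LF+CR. Of 28 tested, 13 were lower and 1 higher, and the median difference was -0.69. Fasn, the fatty acid synthase, was at 29.2, 46.3 and 28.1 RPKM in HF and 308, 89.9 and 228 RPKM in LF+CR (-2.42, SE 0.47, adjusted p = 0.00337). The lowest LF+CR library still stood above the highest HF library. Acly, which makes cytosolic acetyl-CoA from citrate, was at 15.6, 26.2 and 16.7 RPKM in HF and 87.8, 51.4 and 105 RPKM in LF+CR (-1.98, SE 0.27, adjusted p = 4.18e-04). Elovl6, which lengthens palmitate, fell by 2.09 log2 units (SE 0.38, adjusted p = 0.00231), and Acss2, which makes acetyl-CoA from acetate, fell by 2.15 (SE 0.45, adjusted p = 0.00532). The exception was Elovl3, an elongase of very long chains that also belongs to the male-biased genes, at 18.5, 13.6 and 35.1 RPKM in HF and 0.911, 1.22 and 1.52 RPKM in LF+CR (3.30, SE 0.66, adjusted p = 0.00410). Srebf1, the gene of the SREBP1 regulator, was at 60.5, 43.3 and 39.6 RPKM in HF and 65.5, 48.2 and 80.2 RPKM in LF+CR, overlapping groups that did not pass the test (-0.42, SE 0.42, adjusted p = 0.512). Scd1, the stearoyl-CoA desaturase, was lower in HF by 1.67 log2 units (adjusted p = 0.0420) but lost the call in 11 of 30 alternative settings, among them the omission of any 1 of the 6 libraries (adjusted p = 0.058 to 0.133).

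The median of the synthesis list was -0.91 from LF+CR to LF and -0.00 from LF to HF. These steps share the LF libraries, and are given only side by side. Fasn shows the same order in single values, with 42.6, 14.1 and 24.1 RPKM in LF, near HF and below every LF+CR library.

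Cholesterol synthesis genes were lower in HF where they were called. Of 28 genes tested, 8 were lower in HF and none higher, the groups did not overlap for 20, all lower in HF, and the median was -0.72. Without LF 2 and HF+CR 3, the libraries with the highest macrophage marker sums of their groups at 349.0 and 348.7 RPKM, the call count was 13, and with the HF and LF+CR libraries fitted alone it was 17. The number of calls in this list thus depended on which libraries gave the spread. Pmvk, which phosphorylates mevalonate phosphate, stood at 17.7, 16.7 and 18.5 RPKM in HF and 86.4, 58.2 and 74.2 RPKM in LF+CR (-1.97, SE 0.41, adjusted p = 0.00533). Lss, which closes the sterol ring, was at 5.98, 6.60 and 5.66 RPKM in HF and 15.6, 14.2 and 19.5 RPKM in LF+CR (-1.29, SE 0.26, adjusted p = 0.00423). The HF values lay close together and under every LF+CR value for both genes. Insig1, the protein that holds SREBP in the endoplasmic reticulum when sterol is plentiful, was at 49.9, 50.7 and 55.2 RPKM in HF and 191, 165 and 138 RPKM in LF+CR (-1.63, SE 0.33, adjusted p = 0.00397). Sqle, squalene epoxidase, was at 3.18, 5.25 and 6.99 RPKM in HF and 10.6, 8.04 and 14.8 RPKM in LF+CR and did not pass the test (-0.99, SE 0.46, adjusted p = 0.142). With the HF and LF+CR libraries fitted alone it was called lower, at adjusted p = 0.0412, and without HF+CR 3 at 0.0227.

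Promoters of this list were searched because 24 of its 28 members had a difference below 0, though only 8 were called. The search covered the 250 bases before the start of each RefSeq transcript (GRCm38.p6) for the CCAAT box, the letters CCAAT or, on the reverse strand, ATTGG. Of 20 list members with a promoter in the table, 18 held it, against 3353 of all 8278 tested genes with a promoter (40.5%). Other lists were searched too. The box occurred in 4 of 5 class II genes, which were higher in HF, in 15 of 24 fatty acid synthesis genes and in 18 of 60 ribosomal genes. A match describes the letters and is no evidence of binding, and the called members themselves were few, 5 of 6 with a match. Insig1 (chr5:28071162-28071411, plus strand) and Pmvk (chr3:89454291-89454540, plus strand), both lower in HF, are shown with the box in capitals. Pmvk has another RefSeq start, whose window (chr3:89459321-89459570) held no match and is not shown.
Insig1: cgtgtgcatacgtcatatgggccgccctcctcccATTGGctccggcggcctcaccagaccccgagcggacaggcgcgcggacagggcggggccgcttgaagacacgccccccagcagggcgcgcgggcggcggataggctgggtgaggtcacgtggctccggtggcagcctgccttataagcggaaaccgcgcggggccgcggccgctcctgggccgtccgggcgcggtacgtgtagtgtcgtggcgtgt
Pmvk: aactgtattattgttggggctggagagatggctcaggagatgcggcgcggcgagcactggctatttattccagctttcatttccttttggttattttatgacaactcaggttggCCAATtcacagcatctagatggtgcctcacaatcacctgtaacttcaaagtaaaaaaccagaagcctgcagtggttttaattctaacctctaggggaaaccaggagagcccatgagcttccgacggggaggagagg

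Called genes of fatty acid oxidation were mostly higher in HF than in LF+CR. Of 40 tested, 17 were higher and 1 lower, with a median of 0.41, and the count was 10 and 0 without HF 2 and also without the 3 libraries with pancreas transcripts. Relative to LF+CR, the median of the list was 0.54 for LF, 0.41 for HF and -0.03 for HF+CR. From LF to HF it was -0.10, so the list was not higher in HF than in LF. The size of the differences between HF and LF+CR was modest next to the droplet genes. Vnn1, a pantetheinase and a strong PPAR alpha target, was the exception, at 68.0, 97.8 and 96.7 RPKM in HF and 10.2, 18.6 and 17.2 RPKM in LF+CR (2.46, SE 0.36, adjusted p = 5.64e-04). Acaa1a, a peroxisomal thiolase, was at 137, 117 and 108 RPKM in HF and 64.4, 66.7 and 77.1 RPKM in LF+CR (0.78, SE 0.15, adjusted p = 0.00278). Cpt1a, the gate of mitochondrial oxidation, was higher by 0.75 (SE 0.21, adjusted p = 0.0245), a call lost without LF+CR 1 (adjusted p = 0.121), HF 1 (0.0527) or HF 2 (0.0822) and without the 3 libraries with pancreas transcripts (0.147). Acot3, a peroxisomal thioesterase, was the member that was lower in HF (-1.55, SE 0.46, adjusted p = 0.0292), and its call was lost on leaving out any 1 of the 6 libraries, with adjusted p of 0.0597 to 0.0865.

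Ketone body synthesis followed the same direction, with 4 of 7 genes higher in HF, none lower and a median of 0.56. Bdh1, which makes hydroxybutyrate, was at 131, 152 and 129 RPKM in HF and 74.0, 84.3 and 84.9 RPKM in LF+CR (0.75, SE 0.14, adjusted p = 0.00217). Every HF library was above every LF+CR library.

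Genes that answer to fasting, glucagon or insulin were lower in HF or did not pass the test. Of 32 tested, 9 were lower and none higher, with a median of -0.27. Pck1, the rate-controlling enzyme of glucose production, stood at 629, 561 and 580.2 RPKM in HF and 1679, 1853 and 1442 RPKM in LF+CR (-1.48, SE 0.34, adjusted p = 0.00849). Ppp1r3g, a glycogen-targeting subunit of protein phosphatase 1, was at 0.454, 0.172 and 0.190 RPKM in HF and 8.05, 12.95 and 6.82 RPKM in LF+CR (-2.98, SE 0.37, adjusted p = 2.19e-04). Irs2, an adaptor of the insulin receptor, fell by 1.25 log2 units (SE 0.26, adjusted p = 0.00541). All 3 genes had HF values below every LF+CR value. G6pc, the phosphatase that releases glucose, was at 70.3, 74.5 and 71.1 RPKM in HF and 78.0, 92.8 and 39.6 RPKM in LF+CR and did not pass the test (0.12, SE 0.40, adjusted p = 0.861).

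In the list of glycolysis and glycogen, 1 of 26 genes was higher and 5 lower. Without LF+CR 1, without HF 1 or without the 3 libraries with pancreas transcripts, 2 were lower and 1 higher. Hk2, a hexokinase scarce in normal hepatocytes, was the higher gene, at 1.20, 2.72 and 1.20 RPKM in HF and 0.124, 0.107 and 0.204 RPKM in LF+CR (1.20, SE 0.20, adjusted p = 0.00141). The glycolytic enzymes Gpi1 (-1.10, SE 0.18, adjusted p = 0.00138) and Pgk1 (-0.58, SE 0.10, adjusted p = 0.00153) were lower in HF.

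Amino acid breakdown and the urea cycle were lower in HF. Of 41 genes tested, 16 were lower and 1 higher, with a median of -0.34. The lower count fell to 10 without LF+CR 1, LF+CR 2 or HF 1, to 9 without HF 2 and to 7 without the 3 libraries with pancreas transcripts. Tat, which opens tyrosine breakdown, stood at 194, 168 and 185 RPKM in HF and 1432, 1168 and 890.1 RPKM in LF+CR (-2.64, SE 0.22, adjusted p = 1.03e-05). Cps1, the entry enzyme of the urea cycle, was at 283, 303 and 331 RPKM in HF and 885, 1112 and 1019 RPKM in LF+CR (-1.71, SE 0.19, adjusted p = 1.17e-04). The HF libraries were tightly grouped for both genes and well apart from LF+CR. Sds, serine dehydratase, fell by 1.84 log2 units (SE 0.45, adjusted p = 0.0123), Got1, aspartate aminotransferase, by 1.86 (SE 0.39, adjusted p = 0.00533), and Ass1, argininosuccinate synthase, by 1.21 (SE 0.26, adjusted p = 0.00573). Bhmt, which remethylates homocysteine with betaine, was the 1 gene that rose, from 96.0, 216 and 224 RPKM in LF+CR to 1255, 1646 and 1420.2 RPKM in HF (3.09, SE 0.47, adjusted p = 8.68e-04).

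**Figure D2:**
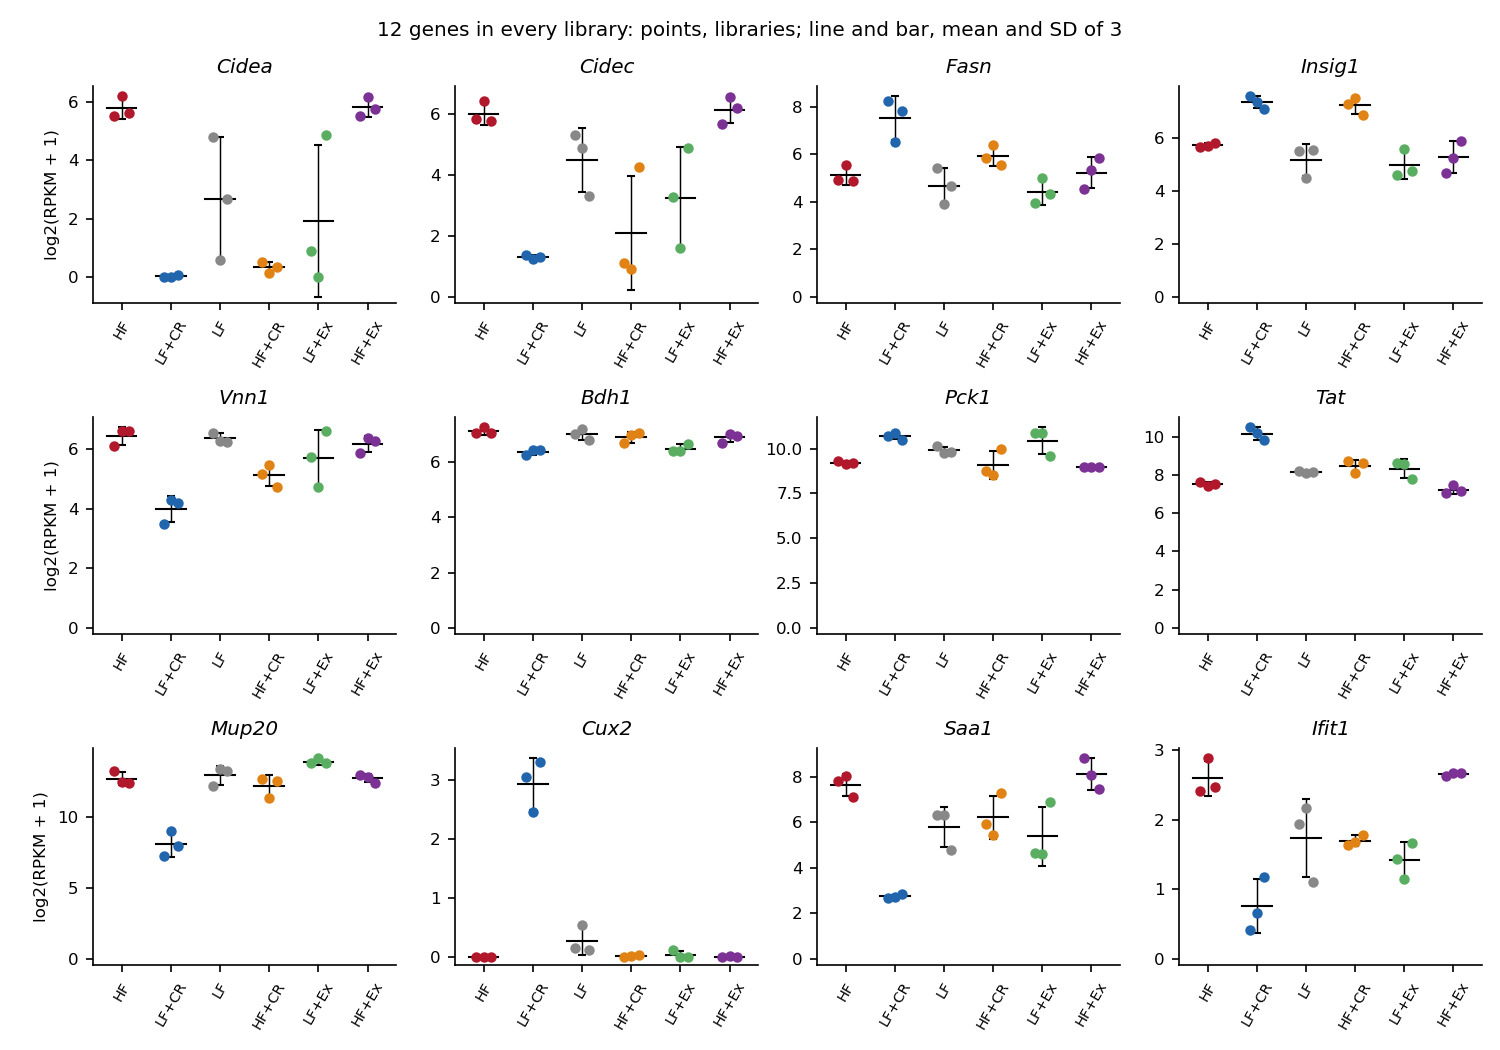
12 genes are plotted by group, with log2(RPKM + 1) on the y axis, a point for each library and the mean and SD of 3 libraries as line and bar. HF and LF+CR do not overlap in any panel; for Cidea the LF libraries spread from 0.509 to 26.5 RPKM, and for Cux2 the LF+CR group alone stands above 1 RPKM.

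Genes known to be higher in male mouse liver were higher in HF, and most called genes of the female-biased list were lower. Of 26 male-biased genes tested, 12 were higher in HF and none lower, with a median of 1.46. Of 25 female-biased genes, 14 were lower and 2 higher, with a median of -1.04. Leaving out single libraries moved the male-biased count to between 8 and 15. The female-biased count was 9 lower and 2 higher without HF 1. Several of these genes belong to families whose near-identical copies share reads, among them the Mup, Cyp2 and Cyp4a genes, and the split between copies is uncertain.

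Mup20, a major urinary protein, stood at 9608, 5496 and 5251 RPKM in HF and 151, 498 and 242 RPKM in LF+CR (4.63, SE 0.44, adjusted p = 3.35e-05). The lowest HF library was above the highest LF+CR library by a wide margin, and the LF values of 4563, 10439 and 9572 RPKM lay with HF. C8a, a chain of the terminal complement complex, was at 131, 75.3 and 74.3 RPKM in HF and 3.13, 8.95 and 8.33 RPKM in LF+CR (3.65, SE 0.30, adjusted p = 1.03e-05). Cyp4a12a, a fatty acid hydroxylase, was at 24.0, 15.2 and 31.3 RPKM in HF and 0.120, 4.54 and 1.59 RPKM in LF+CR (3.22, SE 0.54, adjusted p = 0.00141).

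Cux2, a transcription repressor found in female liver, had the smallest p among named genes. It stood at 7.23, 4.45 and 8.82 RPKM in LF+CR and at 0.00764, 0 and 0.00740 RPKM in HF (-2.92, SE 0.18, adjusted p = 3.65e-07). LF+CR was the single group with any library above 1 RPKM, since the other 12 libraries outside the comparison reached at most 0.462 RPKM. Slc22a26, an organic anion transporter, was at 21.3, 11.3 and 10.5 RPKM in LF+CR and 0.499, 0.463 and 0.730 RPKM in HF (-3.23, SE 0.24, adjusted p = 4.75e-06). The flavin monooxygenase Fmo2 (-2.71, SE 0.31, adjusted p = 1.56e-04) and Cyp2c40 (-2.65, SE 0.43, adjusted p = 0.00110) were lower in HF too. Cyp2a4 had the largest fall of the list, 5.44 log2 units (SE 1.55, adjusted p = 0.0247), with 3.15, 62.7 and 10.8 RPKM in HF and 491, 597 and 871 RPKM in LF+CR. That call was lost on leaving out any of the 6 libraries except HF 2, with adjusted p of 0.0615 to 0.096.

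Of 17 genes of the growth hormone axis itself, 1 was higher in HF and 3 were lower, including Cux2. The shares over all genes tested were 9.51% higher and 8.73% lower. In this list none was higher and 2 were lower without LF+CR 1 or without the 3 libraries with pancreas transcripts. Igf1, the main growth hormone product of liver, was at 27.7, 21.3 and 21.8 RPKM in HF and 13.9, 21.1 and 23.3 RPKM in LF+CR and did not pass the test (0.29, SE 0.21, adjusted p = 0.369). Hnf4a, a regulator of hepatocyte identity, was lower in HF (-0.53, SE 0.12, adjusted p = 0.00928).

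Genes of bile acid synthesis and transport moved both ways, 6 of 27 higher in HF and 8 lower. The counts changed on leaving out libraries. They were 4 and 3 without LF+CR 1, 6 and 3 without LF+CR 2, and 6 and 2 without HF 1. They were 4 and 5 without HF 2, 5 and 5 without HF 3, and 4 and 2 without the 3 libraries with pancreas transcripts. Cyp8b1, the hydroxylase that sets the share of cholic acid, stood at 212, 265 and 342 RPKM in HF and 19.1, 15.8 and 30.2 RPKM in LF+CR (3.61, SE 0.48, adjusted p = 3.64e-04). Every HF value was above every LF+CR value. Hsd3b7, another synthesis enzyme, was higher by 1.398 (SE 0.21, adjusted p = 7.16e-04). Cyp39a1, an oxysterol hydroxylase, fell by 1.64 log2 units (SE 0.29, adjusted p = 0.00205) and Slco1a4, a transporter, by 1.57 (SE 0.29, adjusted p = 0.00253). Cyp7a1, the rate-limiting enzyme of bile acid synthesis, was at 24.5, 14.99 and 29.5 RPKM in HF and 4.59, 26.3 and 18.02 RPKM in LF+CR and did not pass the test (0.70, SE 0.50, adjusted p = 0.352).

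Of 51 genes of foreign compound metabolism, 6 were higher in HF and 9 lower. These counts were 2 and 3 without LF+CR 1, 6 and 3 without LF+CR 2, 4 and 4 without HF 1 or without HF 2, 3 and 5 without HF 3 and 3 and 4 without the 3 libraries with pancreas transcripts. Ces3a, a carboxylesterase, was at 607, 418 and 522 RPKM in HF and 11.4, 55.9 and 67.6 RPKM in LF+CR (3.81, SE 0.47, adjusted p = 2.20e-04). Cyp2b10, the usual marker of the receptor CAR, was at 0.187, 0.146 and 1.74 RPKM in HF and 6.99, 12.8 and 4.601 RPKM in LF+CR (-2.46, SE 0.40, adjusted p = 0.00111). The groups did not overlap for either gene. Ces2a, another carboxylesterase, was lower in HF (-1.22, SE 0.23, adjusted p = 0.00303).

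Acute-phase genes were higher in HF in 10 of 31 cases and lower in 3. Without LF+CR 1 these were 7 and 1, and without the 3 libraries with pancreas transcripts 6 and 1. Saa1 and Saa2, serum amyloid proteins with near-identical sequences, had the largest differences. Saa1 stood at 222, 257 and 137 RPKM in HF and 5.45, 5.53 and 6.12 RPKM in LF+CR (4.90, SE 0.60, adjusted p = 2.13e-04). Saa2 stood at 118, 133 and 71.4 RPKM in HF and 1.98, 1.58 and 1.64 RPKM in LF+CR (5.27, SE 0.76, adjusted p = 5.59e-04). The 3 LF+CR libraries agreed closely for both, and every HF library stood far above them. Orm3, an orosomucoid, was higher by 2.51 (SE 0.41, adjusted p = 0.00119), and Lcn2, lipocalin 2, by 4.33 (SE 1.06, adjusted p = 0.0124). The Lcn2 call was lost without the 3 libraries with pancreas transcripts (adjusted p = 0.0529). Hamp2, a hepcidin gene, went the other way, with 1506, 610.5 and 604 RPKM in HF and 3279.9, 2447 and 4589.6 RPKM in LF+CR (-2.02, SE 0.43, adjusted p = 0.00606).

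Among 37 complement and clotting genes, 14 were higher in HF and 3 lower. Without LF+CR 1 the counts were 7 and 2, without HF 2 they were 9 and 3, and without the 3 libraries with pancreas transcripts 4 and 2. The terminal complement genes C6 (2.15, SE 0.36, adjusted p = 0.00153) and C9 (1.94, SE 0.27, adjusted p = 4.39e-04) were higher, as was C8a above. C9 stood at 138, 119 and 109 RPKM in HF and 20.04, 37.7 and 39.0 RPKM in LF+CR, with no overlap.

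Interferon-induced genes had 26 of 40 members higher in HF and none lower, with a median of 0.97, and no omission of a library moved the count by more than 1.5 times. Psmb9, an immunoproteasome subunit, stood at 35.1, 47.9 and 17.5 RPKM in HF and 4.93, 3.61 and 9.43 RPKM in LF+CR (2.28, SE 0.32, adjusted p = 4.75e-04). Tap1, the peptide transporter beside it in the genome, was at 12.7, 13.5 and 9.48 RPKM in HF and 1.45, 2.34 and 3.23 RPKM in LF+CR (1.97, SE 0.18, adjusted p = 2.34e-05). Ifit1, which binds foreign RNA caps, was at 4.35, 6.42 and 4.58 RPKM in HF and 0.340, 0.584 and 1.27 RPKM in LF+CR (1.84, SE 0.24, adjusted p = 3.61e-04). HF was above LF+CR in every library for all 3. Cxcl9, a chemokine that attracts T cells, was higher by 2.02 (SE 0.35, adjusted p = 0.00165), Oasl1 by 1.88 (SE 0.31, adjusted p = 0.00114) and Ifit3 by 1.86 (SE 0.26, adjusted p = 4.85e-04).

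The same promoter windows were searched for the core of the interferon-stimulated response element: TTTC, any 2 bases and TTTC again or, on the reverse strand, GAAA, any 2 bases and GAAA. It occurred in 14 of 33 list members with a promoter in the table and in 261 of all 8278 tested genes with one (3.15%). The list was put together from genes induced by interferons, so a share above that of all genes follows from how it was chosen. It says nothing about HF and LF+CR. Among the called members 9 of 20 held it (45%), close to the share in the whole list (42.4%). Ifit1 (chr19:34640639-34640888, plus strand) and Rsad2 (chr12:26456453-26456702, minus strand), an antiviral gene that was higher in HF by 1.82 (SE 0.36, adjusted p = 0.00356) and was picked for display after its value was seen, are printed with the element in capitals. A match describes the letters alone.
Ifit1: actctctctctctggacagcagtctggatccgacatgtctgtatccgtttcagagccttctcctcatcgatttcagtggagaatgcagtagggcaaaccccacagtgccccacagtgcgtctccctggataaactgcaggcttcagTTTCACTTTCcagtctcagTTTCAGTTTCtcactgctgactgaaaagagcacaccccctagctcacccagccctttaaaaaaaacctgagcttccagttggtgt
Rsad2: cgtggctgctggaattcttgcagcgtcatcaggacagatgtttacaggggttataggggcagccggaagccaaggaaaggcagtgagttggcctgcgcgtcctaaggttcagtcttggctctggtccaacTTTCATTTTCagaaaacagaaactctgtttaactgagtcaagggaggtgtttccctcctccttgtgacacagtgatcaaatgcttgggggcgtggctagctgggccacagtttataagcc

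Class II antigen presentation genes were higher in HF in 7 of 7 cases, with a median of 1.76; 4 kept the call without LF+CR 2, and 3 without HF 2 or without the 3 libraries with pancreas transcripts. H2-Eb1, a class II beta chain, stood at 40.2, 58.2 and 27.1 RPKM in HF and 6.90, 7.84 and 9.29 RPKM in LF+CR (2.19, SE 0.47, adjusted p = 0.00652). H2-Aa, the alpha chain of the other class II molecule, was at 69.7, 114 and 51.5 RPKM in HF and 15.5, 17.4 and 18.5 RPKM in LF+CR (2.06, SE 0.48, adjusted p = 0.00940). HF 2 was the highest library for both genes, and the groups did not overlap.

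Some markers of immune cells were also higher in HF, and others were not. Macrophage markers summed to between 209.9 and 449.7 RPKM in HF and between 104 and 157 RPKM in LF+CR, HF 2 being the highest, and none of the 17 found was at 0 in all 6 libraries. Of 14 tested, 5 were higher in HF and 1 lower. Those counts were 2 and 0 without LF+CR 1, 2 and 1 without HF 2, 9 and 1 without HF+CR 3 or without LF 2 and HF+CR 3 together, and none without the 3 libraries with pancreas transcripts. Adgre1, the F4/80 antigen, was at 6.08, 11.7 and 5.55 RPKM in HF and 1.58, 2.99 and 3.18 RPKM in LF+CR (1.26, SE 0.27, adjusted p = 0.00579). Clec4f, which defines resident Kupffer cells, was at 29.6, 61.8 and 33.2 RPKM in HF and 18.1, 26.0 and 28.0 RPKM in LF+CR, and did not pass the test (0.71, SE 0.25, adjusted p = 0.0556). Marco, a scavenger receptor of resident macrophages, was at 0.147, 2.67 and 2.41 RPKM in HF and 6.05, 3.49 and 3.45 RPKM in LF+CR (-1.10, SE 0.62, adjusted p = 0.234). Timd4, another marker of resident cells, overlapped between the groups, at 0, 2.20 and 0.754 RPKM in HF and 0.909, 1.59 and 2.19 RPKM in LF+CR. Vsig4, a further macrophage marker, overlapped too, at 4.29, 28.1 and 14.1 RPKM in HF and 7.72, 10.95 and 11.1 RPKM in LF+CR. Cd5l, also a macrophage marker, was called higher in HF, with differences of 1.06 to 1.73 over the alternative settings. That call was lost only without the 3 libraries with pancreas transcripts (adjusted p = 0.0570). Clec4f and Marco thus lay in opposite directions, but neither passed the test, so a shared direction of resident markers was not settled. Cd163, a scavenger receptor, was the marker that was lower in HF (-1.42, SE 0.36, adjusted p = 0.0142), a call lost without LF+CR 1 (adjusted p = 0.0551) or LF+CR 3 (0.0516) and without the 3 libraries with pancreas transcripts (0.0556). Of 16 lymphocyte markers found, 3 were tested; the list summed to 5.66 to 7.83 RPKM in HF and 1.01 to 1.74 RPKM in LF+CR. Cd79b, a B cell receptor chain, was higher in HF by 1.18 (SE 0.25, adjusted p = 0.00514). The 7 neutrophil markers found, of which 2 were tested, summed to 3.31 to 15.3 RPKM in HF and 0.5005 to 1.06 RPKM in LF+CR. The part of these cells in the immune gene differences was not tested.

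**Figure D3:**
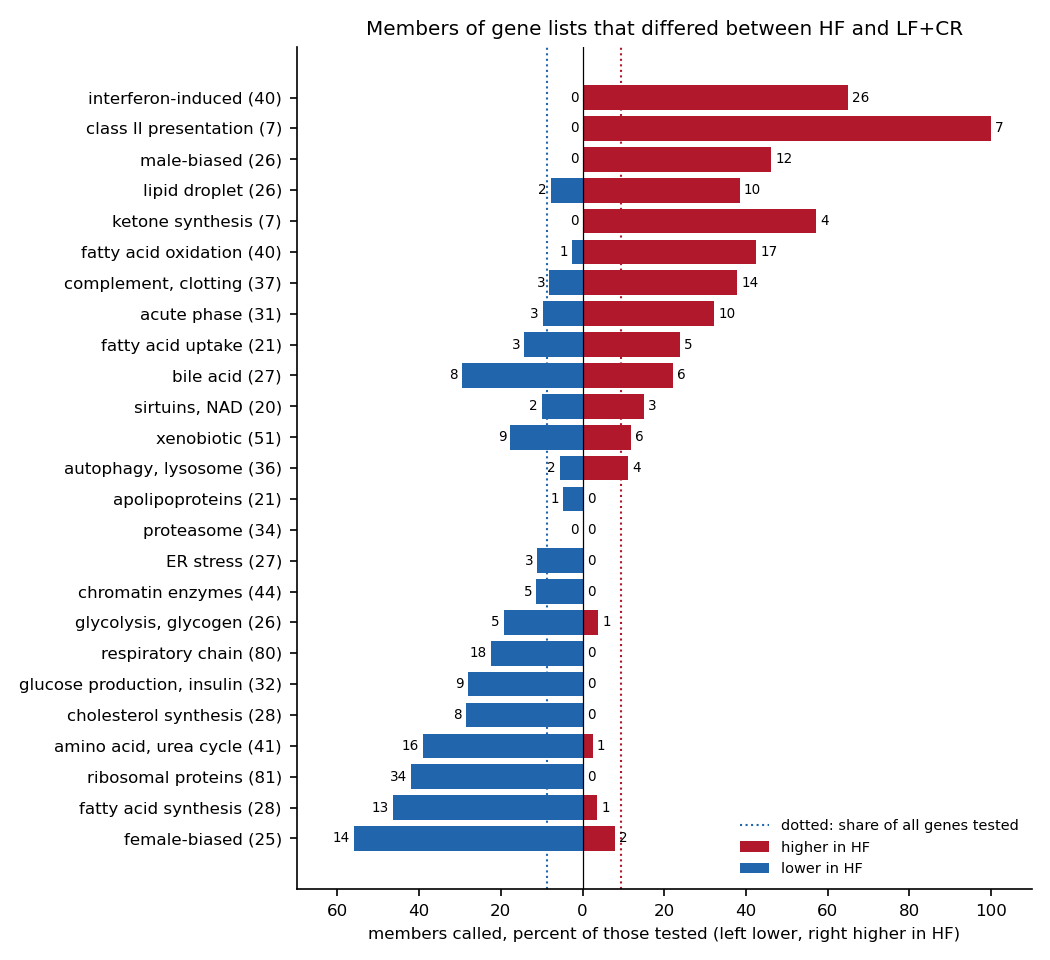
Bars give the share of tested members of each list that was called higher in HF (right) or lower (left), with the number of genes beside each bar and the list size in brackets; dotted lines are the shares over all 10356 genes, 9.51% and 8.73%. The interferon-induced list stands at 26 of 40 higher and the female-biased list at 14 of 25 lower.

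Ribosomal protein genes were lower in HF in 34 of 81 cases and higher in none, with a median of -0.45. This count was the least stable: 2 without LF+CR 1, 13 without LF+CR 2, 12 without HF 2, 8 without HF 3 and 2 without the 3 libraries with pancreas transcripts. The ribosomal list was highest in LF+CR 1, the library with 2656 RPKM of pancreas markers, as the plot of list means by library shows, and the part of this in the result was not tested. Rpl3 kept its call in all 30 settings, at 166, 166 and 143 RPKM in HF and 271, 220.1 and 244 RPKM in LF+CR (-0.62, SE 0.12, adjusted p = 0.00364). Subunits of the respiratory chain were lower in 18 of 80 cases and higher in none, with a median of -0.27, and 11 were lower without LF+CR 1, 11 with the HF and LF+CR libraries fitted alone, and 6 without the 3 libraries with pancreas transcripts. Cox7a1, an isoform of cytochrome oxidase typical of muscle and brown fat, was at 7.35, 9.61 and 7.85 RPKM in HF and 52.4, 31.2 and 32.5 RPKM in LF+CR (-2.07, SE 0.37, adjusted p = 0.00207). Atp5g1, a subunit of ATP synthase, was lower too (-1.21, SE 0.19, adjusted p = 0.00108).

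None of 34 constitutive proteasome genes passed the test in the limma fit, and 5 had an unadjusted p under 0.05. Without LF 2, 2 were called higher and 1 lower, and without LF+Ex 3 or HF+CR 3, 1 was called lower. For autophagy and lysosome genes 4 of 36 were higher in HF and 2 lower, and 3 and 0 without the 3 libraries with pancreas transcripts. That is near the shares over all genes tested, 9.51% higher and 8.73% lower, and the list median was 0.01. The higher genes included Atg7 (0.93, SE 0.16, adjusted p = 0.00149) and Gabarapl1 (0.79, SE 0.15, adjusted p = 0.00240), which build autophagosomes. Of 27 endoplasmic reticulum stress genes 3 were lower, near the share lower over all genes tested, among them Ppp1r15a (-0.70, SE 0.14, adjusted p = 0.00365). After median-of-ratios scaling or quantile normalization 6 were lower, and with the HF and LF+CR libraries fitted alone 5. Of 20 sirtuin and NAD genes 3 were higher and 2 lower, and 1 and 2 without the 3 libraries with pancreas transcripts. The lower ones included Acmsd, which diverts tryptophan away from NAD synthesis, at 0.957, 1.41 and 1.29 RPKM in HF and 8.12, 6.73 and 4.21 RPKM in LF+CR (-1.70, SE 0.29, adjusted p = 0.00153). Sirt1 did not pass the test, at 0.920, 1.77 and 1.82 RPKM in HF and 2.40, 2.30 and 1.80 RPKM in LF+CR (-0.36, SE 0.28, adjusted p = 0.403).

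Among 19 clock genes Cry1, a repressor of the clock, was lower in HF (-0.84, SE 0.19, adjusted p = 0.00896), and 2 genes were lower without LF+Ex 3 or HF+CR 3. Per2 was at 7.48, 6.03 and 4.005 RPKM in HF and 5.48, 10.3 and 10.5 RPKM in LF+CR and did not pass the test (-0.50, SE 0.39, adjusted p = 0.403). Inhbe, a secreted activin chain made by hepatocytes, was at 41.4, 57.7 and 56.3 RPKM in HF and 5.22, 9.45 and 10.6 RPKM in LF+CR (2.52, SE 0.33, adjusted p = 3.15e-04), the largest difference in the hepatokine list, where 2 of 17 were higher and 1 lower. Those hepatokine counts were near the shares over all genes tested, 9.51% higher and 8.73% lower. In that list 1 was higher and none lower without LF+CR 2 or HF 2, and 3 were higher and 3 lower without LF+Ex 3. With the HF and LF+CR libraries fitted alone 4 were higher and 1 lower. Tm6sf2, which aids lipid loading of lipoproteins, was lower in HF at 13.1, 21.2 and 16.2 RPKM against 56.7, 39.6 and 43.9 RPKM (-1.43, SE 0.25, adjusted p = 0.00186). It was the 1 call among 21 apolipoprotein and lipoprotein assembly genes; 3 were lower without LF+Ex 3, and 1 was higher and 1 lower without HF+CR 3. Ago2, the microRNA effector, was lower in HF by a small margin (-0.57, SE 0.14, adjusted p = 0.0104), with 1.41, 2.36 and 1.62 RPKM against 2.94, 3.33 and 3.09 RPKM. It was among 3 of 17 microRNA pathway genes that were lower, with none higher; without LF 2, 5 were lower and 1 higher.

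Mt2, a metallothionein that binds zinc and copper, was the 1 call among 23 antioxidant genes and 1 of the higher iron and zinc genes, at 153, 226 and 87.4 RPKM in HF and 19.0, 14.7 and 14.3 RPKM in LF+CR (3.11, SE 0.84, adjusted p = 0.0192). The Mt2 call was lost without LF+CR 2 (adjusted p = 0.0572), HF 1 (0.0525), HF 2 (0.0718) or the 3 libraries with pancreas transcripts (0.0508). Of 19 iron and zinc genes 3 were higher and 5 lower, the hepcidin genes Hamp and Hamp2 among the latter. Hamp lost its call in 18 of 30 alternative settings, and Hamp2 in none. The counts of the list were 3 and 2 without LF+CR 1, 1 and 3 without LF+CR 2, 1 and 2 without HF 2, and 2 and 2 without the 3 libraries with pancreas transcripts. Of 44 chromatin enzyme genes 5 were lower, near the 8.73% lower over all genes tested. The largest difference was in the methyltransferase Setd1a, at 3.82, 3.995 and 3.56 RPKM in HF and 8.32, 6.71 and 5.85 RPKM in LF+CR (-0.72, SE 0.15, adjusted p = 0.00592). The count of lower chromatin genes was between 1 and 3 without LF+CR 1, LF+CR 2, HF 1, HF 2, HF 3, HF+CR 1 or any HF+Ex library. Of 22 extracellular matrix genes 2 were higher and 2 lower, near the shares over all genes tested, 9.51% and 8.73%. On leaving out any 1 of the 6 libraries, 1 or 2 matrix genes in all were called. These counts were 5 and 2 without HF+CR 3, 7 and 2 with the HF and LF+CR libraries fitted alone, and 10 and 2 without LF 2 and HF+CR 3. Stellate cell markers summed to 132 to 151 RPKM in HF and 96.6 to 114 RPKM in LF+CR. Of 10 tested, 4 were higher and 1 lower, with 2 and 0 without LF+CR 1, LF+CR 3, HF 2 or the 3 libraries with pancreas transcripts and 3 and 0 without HF 1. Their part in the matrix gene differences was not tested.

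**Figure D4:**
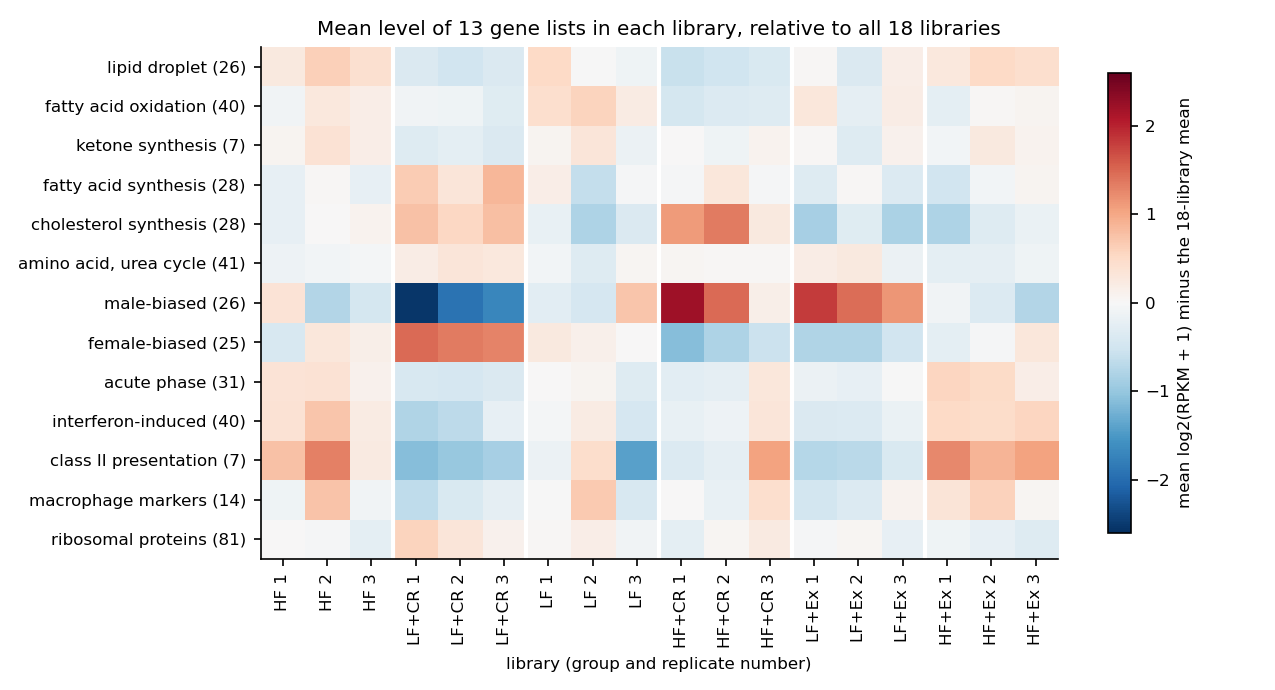
Rows are 13 gene lists, with the number of genes in brackets, and columns the 18 libraries; colour is the list's mean log2(RPKM + 1) minus its mean over all 18 libraries. The 3 LF+CR libraries have the lowest male-biased and the highest female-biased means, and the ribosomal list is highest in LF+CR 1.

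The place of the other groups between the ends was measured next. For LF and for HF+CR the test was against the midpoint of HF and LF+CR, a contrast that does not reuse the difference between them. LF left the midpoint for 23 genes (0.222%), 13 above (0.126%) and 10 below (0.0966%), and 1485 did so at an unadjusted p under 0.05. This count was 10 without LF 1, 15 without LF 2 and 99 without LF 3, and 36, 51 and 68 without LF+Ex 1, LF+Ex 2 and HF+CR 3. HF+CR left it for 221 genes (2.13%), 105 above (1.01%) and 116 below (1.12%), and for 1602 at an unadjusted p under 0.05. That count was 142 without LF+CR 1, 123 without HF 2, 143 without HF 3, 58 without HF+CR 1, 111 without HF+CR 2 and 474 without HF+CR 3. For comparison, 673 genes (6.5%) were called between LF and LF+CR, 361 higher in LF (3.49%) and 312 lower (3.01%). Between HF and LF 42 genes (0.406%) were called, 27 higher in HF (0.261%) and 15 lower (0.145%).

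For the 423 genes called with a difference of at least 1 log2 unit, a position was computed on which LF+CR is 0% and HF 100%. These genes were chosen on HF and LF+CR, so the positions are a description. Over the 278 genes higher in HF the median position was 57.9% for LF, 45.2% for LF+Ex, 64.7% for HF+CR and 98.9% for HF+Ex. Over the 145 genes lower in HF it was 65.9% for LF, 78.6% for LF+Ex, 79.2% for HF+CR and 101% for HF+Ex. The HF+Ex group thus lay at the HF end for the middle gene of both sets, and was nearer to HF than to LF+CR for 275 of 278 and 140 of 145 genes. LF left the midpoint for 7 of the 423 genes and HF+CR for 50.

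**Figure D5:**
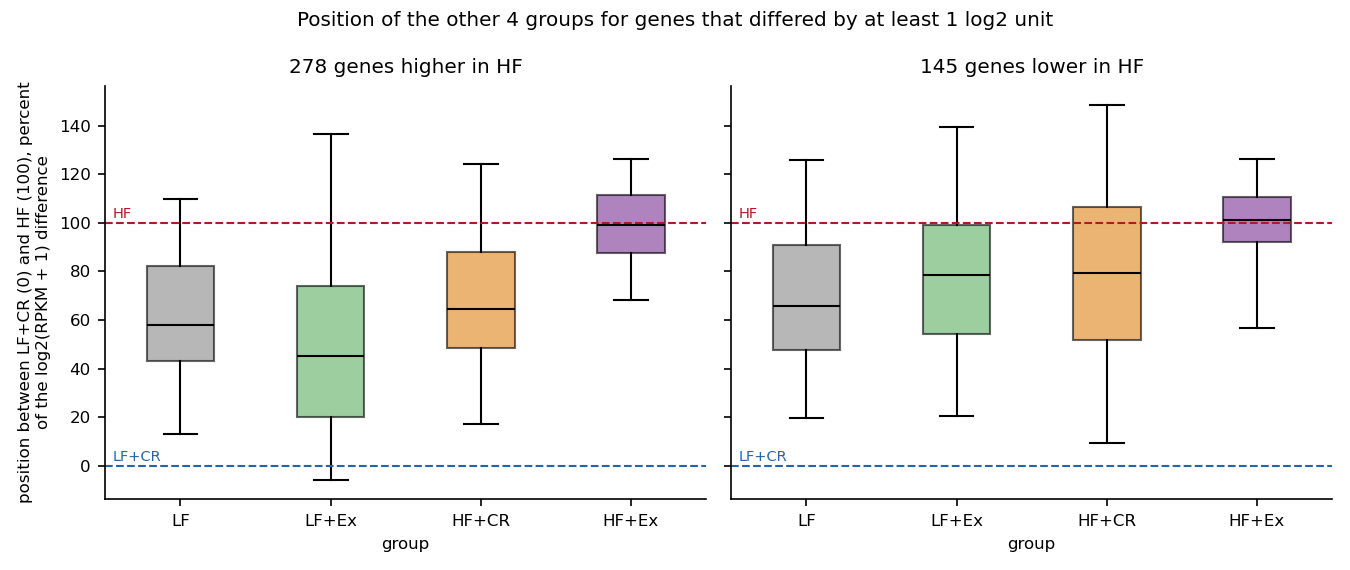
Boxes give the quartiles and whiskers the 5th and 95th percentiles of the position of 4 groups for 278 genes higher and 145 genes lower in HF, in percent of the log2(RPKM + 1) difference from LF+CR (0) to HF (100). The HF+Ex boxes are centred near 100, at 98.9% and 101%, and the LF+Ex, LF and HF+CR boxes are wide and lower.

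The named lists did not all place LF and HF+CR alike. Relative to LF+CR, the medians over the male-biased genes were 1.63 for LF, 1.46 for HF, 3.11 for HF+CR and 3.60 for LF+Ex. HF+CR was above the midpoint for 15 of these 26 genes and LF for 4, and HF+CR was below the midpoint for 11 of 25 female-biased genes and LF for 2. For cholesterol synthesis the medians relative to LF+CR were -1.12 for LF, -0.72 for HF and 0.21 for HF+CR, so the middle gene of HF+CR lay near LF+CR. The HF+CR libraries did not agree on this place. The list summed to 1983, 2321 and 1209 RPKM in HF+CR and to 1610, 1435 and 1580 RPKM in LF+CR. For the interferon list they were 0.46 for LF, 0.97 for HF, 0.57 for HF+CR and 1.08 for HF+Ex, and neither LF nor HF+CR left the midpoint for any of its 40 genes. All of these medians share the LF+CR libraries.

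Single genes show where the order of the groups was not a line from LF+CR to HF. The genes of this paragraph were chosen after their values were seen, as the extremes of the midpoint tests. Serpina1e, an antitrypsin gene with close paralogs, was at 4512, 1488 and 1413 RPKM in HF+CR, above every HF value of 308, 29.2 and 34.6 and every LF+CR value of 3.68, 3.96 and 17.04 (6.54 above the midpoint, SE 0.84, adjusted p = 7.40e-04). Selenbp2, a selenium-binding protein, was at 134, 38.9 and 94.3 RPKM in HF+CR and between 5.95 and 14.5 RPKM in HF and LF+CR (3.13, SE 0.37, adjusted p = 4.25e-04). So a gene that did not pass the test between HF and LF+CR (0.14, adjusted p = 0.854) was several times higher in HF+CR. Cyp2b13, a female-biased P450 with a close paralog, was at 5.24, 17.5 and 12.8 RPKM in HF and 44.9, 14.96 and 40.7 RPKM in LF+CR. It was at or under 0.785 RPKM in all LF and HF+CR libraries, and the LF departure from the midpoint was -3.77 (SE 0.35, adjusted p = 1.42e-04). Acot3 was at 1.16, 4.74 and 2.77 RPKM in HF+CR, below every library of HF (17.5 to 19.7) and LF+CR (47.0 to 61.2), a departure of -3.20 (SE 0.40, adjusted p = 6.42e-04). In LF, Slc27a2 lay above the midpoint, at 832, 708 and 820.0 RPKM (0.62, SE 0.10, adjusted p = 0.0111).

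Some genes were listed for report whatever their result. Ppargc1a, a coactivator of glucose production and mitochondrial genes, was lower in HF, at 1.09, 1.402 and 1.52 RPKM against 3.75, 2.03 and 3.05 RPKM (-0.73, SE 0.19, adjusted p = 0.0171). That call was lost without LF+CR 1 (adjusted p = 0.0875), HF 1 (0.0631) or the 3 libraries with pancreas transcripts (0.11). Fgf21, a fasting hormone of liver, was at 6.27, 24.6 and 21.5 RPKM in HF and 41.2, 7.87 and 7.13 RPKM in LF+CR (0.15, SE 0.81, adjusted p = 0.920), with groups that overlapped and a sign that turned on leaving out single libraries. Hspa5, the main chaperone of the endoplasmic reticulum, was at 195, 248 and 209 RPKM in HF and 213, 233 and 188 RPKM in LF+CR (0.04, SE 0.29, adjusted p = 0.945).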

How the data were processed

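Liver polyA RNA was sequenced from 18 libraries in 6 groups of 3. The authors deposited RPKM values per RefSeq transcript; reads were handled with TopHat 1.4.1 and Cufflinks 1.3.0 on mm10, per the submitters' processing notes, and the annotation version was not given in the sources used here. All 550476 values in the single-library files equalled those in the series table. Of 30582 transcript rows, 30003 were named from RefSeq and 180 from GENCODE, 399 stayed unnamed, and the row with the highest mean stood for each of 23532 genes. An RPKM table holds no read counts, so no count model was used and depths are estimates.

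Genes that reached 1 RPKM in 3 or more libraries were tested as log2(RPKM + 1), with a pseudocount of 1, by limma 3.58.1 (R 4.3.3): 6 group means over 18 libraries, 12 residual degrees of freedom, moderation with an intensity trend, and Benjamini-Hochberg adjustment over 10356 genes. Differences are given with their standard error (SE). On simulated data with 10356 genes, 54%, 86%, 92% and 96% of genes changed 1.5, 2, 3 and 4-fold were called, and 13 unchanged genes. The simulation used normal noise, independent between genes, and set the folds on the RPKM + 1 scale. Changed genes, 50 per fold, were drawn only from those with a mean log2(RPKM + 1) of at least 2. Recovery of genes at lower levels was not measured.

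Named genes were up to 15 per direction with the largest difference among called genes without overlap and a group mean of at least 2 RPKM, leaving out predicted genes and pancreas markers, up to 6 called members of each list, and a short list kept whatever its result. The members and gene lists were chosen with earlier results of these data known. Other pseudocounts, filters, scalings, transcript sums, a replicate block and omitted libraries were tried. Omitting pancreas-carrying libraries, LF 2 with HF+CR 3, or libraries outside a contrast was chosen after seeing the data. Results for some genes are not reported here.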

Additional observations from a re-analysis of the deposited data

How the results depend on the processing

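The count of genes called between HF and LF+CR was 1889 and ranged from 963 to 2136 on leaving out single libraries, the lowest without LF+CR 1. It was 1173 with a mean of at least 5 RPKM, where 5705 genes were tested, and 762 without the 3 libraries with pancreas transcripts. The LF departures from the midpoint, 23, became 40 with median-of-ratios scaling, 59 with quantile normalization, 36 without LF 2 and HF+CR 3 and 10 (without LF 1) to 99 (without LF 3) on leaving out single libraries. The HF+CR departures, 221, became 56 without the 3 libraries with pancreas transcripts, 576 without LF 2 and HF+CR 3, and 58 (without HF+CR 1) to 474 (without HF+CR 3) on leaving out single libraries. The filter tested fewer genes and the omissions used fewer libraries, and counts rose in some omissions and fell in others. The cause of these changes was not tested for any setting. Of 176 called named genes, 69 lost the call without the 3 libraries with pancreas transcripts, 56 without LF+CR 1 and 48 without HF 2.

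Among named genes 4 changed sign, none of them called with all libraries in the fit and the reported settings. Pparg, called lower in 4 other settings, was 0.53 with transcripts summed. G6pc ranged from -0.24 without LF+CR 3 to 0.37 without LF+CR 2. Fgf21 was -0.20 without LF+CR 2, -0.26 without LF+CR 3, -0.18 without HF 2 and -0.088 without HF 3, and was highest without LF+CR 1, at 0.92. Hspa5 was -0.042 without LF+CR 3 and -0.061 without HF 2, and 0.11 without HF 1. Some list medians also changed sign, and those given here are not all of them. With a mean of at least 5 RPKM the bile acid median went from -0.28 to 0.25 and that of the adipocyte markers from 0.66 to -0.38. Under that filter the median of the cell cycle genes went from 0.15 to -0.28 and that of the bile duct cell markers from -0.25 to 0.45. The iron and zinc median, -0.00, was 0.064 with that filter and 0.018 with median-of-ratios scaling. Leaving out single libraries gave 0.023 without LF+CR 2, 0.032 without HF 1, 0.0043 without HF 3 and, at the lowest, -0.13 without HF 2.

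With the replicate number as a block, 1832 genes were called between HF and LF+CR, 24 for LF and 177 for HF+CR against the midpoint. Same-numbered libraries of different groups had correlations of deviations from -0.490 to 0.316, over 0.1 in 10 of 45 pairs, so the numbers were not taken as a pairing.

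Counts of calls in lists also moved. With the HF and LF+CR libraries fitted alone, 14 foreign compound genes and 3 clock genes were lower. With a mean of at least 5 RPKM, which tested fewer genes, 13 interferon-induced genes were higher and 6 female-biased genes lower. After quantile normalization 4 glycolysis genes were higher and 6 lower.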
